A study of Mus musculus with 24 samples.

Results

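The nuclear genome encodes most subunits of the 5 complexes of oxidative phosphorylation (OXPHOS), and their mRNAs were followed by complex in mouse liver. A gene was a member when it was protein-coding and its symbol began with Nduf followed by a, b, c, s or v and a digit, was Sdha, Sdhb, Sdhc or Sdhd, or began with Uqcr, Cox4 to Cox8 or Atp5. The rule gave 84 of the 33019 gene identifiers in the count table: 37 for complex I, 4 for complex II, 8 for complex III, 18 for complex IV and 17 for complex V. Another 12 rows fitted the names without being protein-coding and were left out. The samples were 24 poly(A)-selected RNA libraries from livers of 2-month-old C57BL/6J mice, 4 per genotype: hepatic Atg5 KO, hepatic TSC1 KO, hepatic Atg5/TSC1/p62 TKO (p62 TKO below), hepatic Atg5/TSC1/Nrf2 TKO (Nrf2 TKO), hepatic Atg5/TSC1 DKO (DKO) and wild type (WT). By their labels both triple knockouts carry the same Atg5 and Tsc1 deletions as the DKO. Atg5 is needed to build autophagosomes, Tsc1 restrains the kinase complex mTORC1, p62 (gene Sqstm1) is an autophagy receptor and Nrf2 (gene Nfe2l2) is a transcription factor of the antioxidant response. The labels used here name neither the Cre line nor the deleted exons. They do not say whether the 4 libraries of a genotype came from separate animals, so p-values measure only the spread between these libraries, which may be technical.

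Complexes I and II pass electrons from NADH and succinate to ubiquinone, complex III hands them to cytochrome c, and complex IV transfers them to oxygen. Complexes I, III and IV pump protons across the inner mitochondrial membrane, and complex V, the ATP synthase, uses that gradient to make ATP. Complex II is encoded wholly in the nucleus, whereas the other complexes also hold subunits made from mitochondrial DNA, and several complex IV subunits exist as a widely expressed form and a form known from muscle, lung or testis.

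Library totals ran from 10494080 to 13057467 counts. DKO libraries spent 13.3 to 13.7% of their counts on the 20 most abundant genes and WT libraries 21.01 to 26.71%, so the scaling between libraries matters. Values below are CPM, counts relative to the library size, after trimmed-mean (TMM) scaling, which holds the bulk of genes level. With total counts alone, the median log2 fold change of all 15851 genes tested was 0.37 for Atg5 KO, 0.14 for TSC1 KO, 1.07 for DKO, 0.55 for p62 TKO and 0.39 for Nrf2 TKO, each against WT. It was -0.48 for p62 TKO and -0.71 for Nrf2 TKO against DKO. A change given below is therefore relative to the typical gene, and counts, medians and members' changes are also given with total counts. Nfe2l2 averaged 11.7 ± 4.24 CPM in Nrf2 TKO and 113 ± 32.7 CPM in DKO livers (SD, n = 4 each). Sqstm1 had 249, 439, 363 and 774 CPM in p62 TKO, against 1002, 1049, 1063 and 729 CPM in DKO and 508 to 691 CPM in WT libraries. Library 4 labelled p62 TKO was thus above WT and within the DKO range, and the p62 TKO counts are also given without it. Atg5 averaged 43 ± 4.27 CPM in Atg5 KO, 83.7 ± 3.75 CPM in TSC1 KO, 23.4 ± 2.28 CPM in DKO and 26.8 ± 3.75 CPM in WT livers (SD, n = 4 each). Tsc1 averaged 31 ± 1.99 CPM in TSC1 KO, 36.6 ± 12.1 CPM in DKO and 35.1 ± 1.53 CPM in WT livers (SD, n = 4 each). A count over a whole gene includes reads outside any deleted exon, so the Atg5 and Tsc1 values do not check the labels, and the Sqstm1 value of library 4 does not settle its label. In whole liver, fewer cells of a type and less RNA per cell cannot be told apart.

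In livers labelled as lacking both Atg5 and Tsc1, nearly the whole set fell relative to the typical gene. Of 80 members that passed the filter on low counts, 73 fell and 3 rose in DKO against WT livers (edgeR's quasi-likelihood test, Benjamini-Hochberg adjusted p under 0.05 over all genes), when 32.3% of all genes were called lower and 37.1% higher. The median log2 fold change of the members was -1.08, against 0.08 over all genes, and the median member was at 0.474 of its WT level. The members' summed level was 6319 to 8264 CPM in DKO and 15401 to 16044 CPM in WT libraries, with no overlap. As a share of all counts the members made up 1.09 ± 0.129% in DKO and 1.2 ± 0.0615% in WT livers (SD, n = 4 each), and the libraries overlapped. With total counts alone the members' median was -0.08 against 1.07 over all genes, and 20 members were lower and 11 higher, when 11.1% of all genes were called lower and 70.4% higher. The distance between the members' median and that of all genes was -1.16 with TMM and -1.15 with total counts. A change of scaling shifts all genes of a comparison nearly alike, so this distance stays by construction. It is therefore no check on the choice of scaling.

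**Figure D1:**
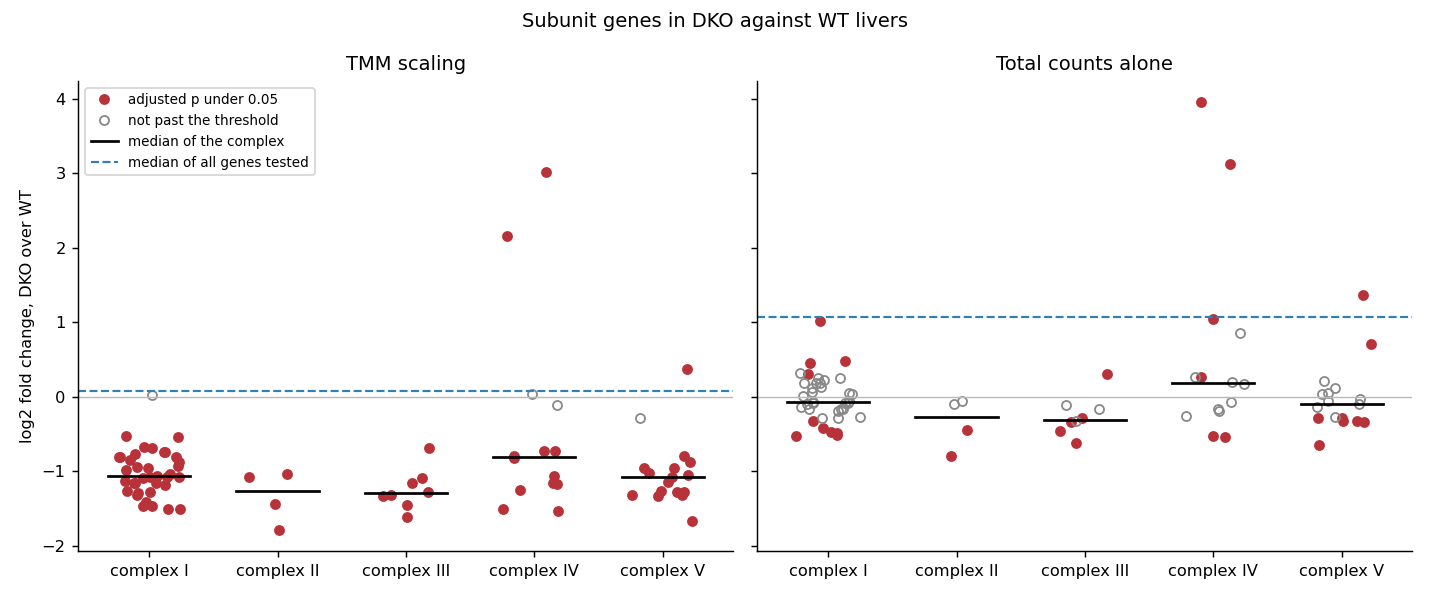
Log2 fold change of each of the 80 tested members in DKO over WT livers, by complex, with TMM scaling and with total counts alone; points are members, marked by whether they passed an adjusted p under 0.05, with the median of each complex and of all genes tested. With TMM 73 members are called lower and 3 higher; with total counts 20 are called lower and 11 higher, and the complex IV median turns from -0.81 to 0.19.

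In complex I, 36 of 37 members fell in DKO livers (median -1.06 with TMM, -0.07 with total counts). Ndufs1, an iron-sulfur subunit of the electron-input arm, had 46, 49.1, 44.8 and 47.6 CPM in DKO libraries, against 142, 148, 116 and 113 CPM in WT libraries. The groups did not overlap, and the log2 fold change was -1.47 ± 0.13 (SE, edgeR adjusted p = 1.2e-09) and -0.47 with total counts. Ndufv1, which carries the NADH-binding site, had 116, 104, 91.5 and 82.1 CPM in DKO, against 222, 223, 217 and 211 CPM in WT libraries (log2 fold change -1.15; -0.16 with total counts). Every DKO library was again below every WT library. The accessory subunit Ndufa9 had 50.4, 54.7, 49.5 and 39.2 CPM in DKO, against 141, 143, 141 and 128 CPM in WT libraries, with a log2 fold change of -1.51 ± 0.13 (SE, edgeR adjusted p = 8.5e-10) and of -0.52 with total counts. Its groups did not overlap either. By name family, the 10 Ndufb subunits of the membrane arm had a median of -1.16, the 11 Ndufs and Ndufv subunits -1.07 and the 14 Ndufa members -0.87. All 10 Ndufb and all 11 Ndufs and Ndufv genes passed as lower, and so did 13 of the 14 Ndufa genes. With total counts the Ndufa median turned to 0.12. The smallest called falls were those of Ndufa11 (log2 fold change -0.52) and Ndufa12 (-0.54), both of which passed as higher with total counts (0.48 and 0.46). Ndufa12 was also the only member called lower whose libraries overlapped between DKO and WT.

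Complex II fell in all 4 of its genes (median -1.26 with TMM, -0.27 with total counts). Sdha, the flavoprotein that oxidises succinate, had the deepest fall of the 80 members: 189, 195, 186 and 173 CPM in DKO libraries, against 660, 708, 632 and 548 CPM in WT libraries. That is a log2 fold change of -1.78 ± 0.16 (SE, edgeR adjusted p = 1.5e-09), and with total counts it was still lower at -0.79. Sdhb, the iron-sulfur subunit, had 93.1, 83.5, 72.9 and 85.2 CPM in DKO, against 234, 244, 215 and 212 CPM in WT libraries (log2 fold change -1.44; -0.44 with total counts). For the membrane anchors the log2 fold changes were -1.08 for Sdhc and -1.04 for Sdhd, and -0.09 and -0.05 with total counts. No library of one group reached the other for any of these 4 genes.

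Complex III fell in all 8 of its genes (median -1.29 with TMM, -0.30 with total counts). Uqcrc2, a core protein of the matrix domain, had 66.8, 72, 69.9 and 70.4 CPM in DKO, against 219, 231, 218 and 187 CPM in WT libraries. Its log2 fold change was -1.61 ± 0.14 (SE, edgeR adjusted p = 5.2e-10) and -0.62 with total counts. Uqcrfs1, the Rieske iron-sulfur protein, had 113, 99, 82.2 and 82.8 CPM in DKO, against 245, 256, 273 and 252 CPM in WT libraries (log2 fold change -1.45; -0.46 with total counts). The groups did not overlap for either gene. Uqcrc1, the other core protein, had 143, 131, 121 and 122 CPM in DKO, against 305, 325, 303 and 313 CPM in WT libraries (log2 fold change -1.27; -0.28 with total counts). The smallest fall of the complex was that of Uqcr10, a small subunit (log2 fold change -0.68), which passed as higher with total counts (0.31).

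Complex IV had the widest range of log2 fold changes over all tested members, -1.53 to 3.01, its upper end being the scarce isoform Cox4i2. Of its 18 members 14 could be tested, and of these 10 fell and 2 rose (median -0.81 with TMM, turning to 0.19 with total counts). Without the tissue-restricted isoforms and members under a mean of 1 CPM, 10 of 11 fell, with a median of -1.06. The range was then -1.53 to 0.04, and that of complex V, -1.66 to 0.37, was wider. Cox4i1, the widely expressed form of subunit 4, had 416, 402, 319 and 304 CPM in DKO, against 570, 550, 614 and 663 CPM in WT libraries. Its log2 fold change was -0.73 ± 0.14 (SE, edgeR adjusted p = 5.8e-05) with TMM but 0.26, and called higher, with total counts. Cox5a, a subunit on the matrix side, had 35.5, 36, 28.4 and 30.9 CPM in DKO, against 73.3, 72.9, 75.1 and 68.6 CPM in WT libraries (log2 fold change -1.15; -0.16 with total counts). Cox7b, a small membrane subunit, had 82.7, 78.6, 63.6 and 78.2 CPM in DKO, against 180, 172, 190 and 179 CPM in WT libraries (log2 fold change -1.25; -0.26 with total counts). The groups did not overlap for any of these 3 genes. Log2 fold changes of -1.53 for Cox7a2 and -1.51 for Cox7c were the lowest of the complex (-0.54 and -0.52 with total counts). Ndufa4 carries a complex I name but is known as a complex IV subunit: it had 150 to 222 CPM in DKO and 365 to 442 CPM in WT libraries (log2 fold change -1.09; -0.10 with total counts). Moving it and its relative Ndufa4l2 to complex IV left both medians in place, at -1.06 for complex I and -0.81 for complex IV.

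Of the 17 complex V genes 15 fell and 1 rose in DKO livers (median -1.08 with TMM, -0.09 with total counts). Atp5b, the catalytic beta subunit, had 667, 627, 567 and 623 CPM in DKO, against 1505, 1583, 1481 and 1426 CPM in WT libraries. The groups were well apart, with a log2 fold change of -1.27 ± 0.16 (SE, edgeR adjusted p = 2e-07) and of -0.28 with total counts. Atp5c1, the gamma subunit of the central stalk, had 149, 156, 135 and 145 CPM in DKO, against 303, 313, 290 and 280 CPM in WT libraries (log2 fold change -1.02; -0.03 with total counts). Atp5f1, a subunit of the peripheral stalk, had 153, 140, 119 and 114 CPM in DKO, against 323, 324, 348 and 315 CPM in WT libraries (log2 fold change -1.32; -0.33 with total counts). Neither gene overlapped between the groups. The member that rose was Atp5s, known as factor B, with 9.25, 9.96, 9.01 and 7.87 CPM in DKO, against 8.17, 6.7, 6.77 and 6.21 CPM in WT libraries. These libraries overlapped, and its log2 fold change was 0.37 ± 0.16 (SE, edgeR adjusted p = 0.047) and 1.36 with total counts.

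**Figure D2:**
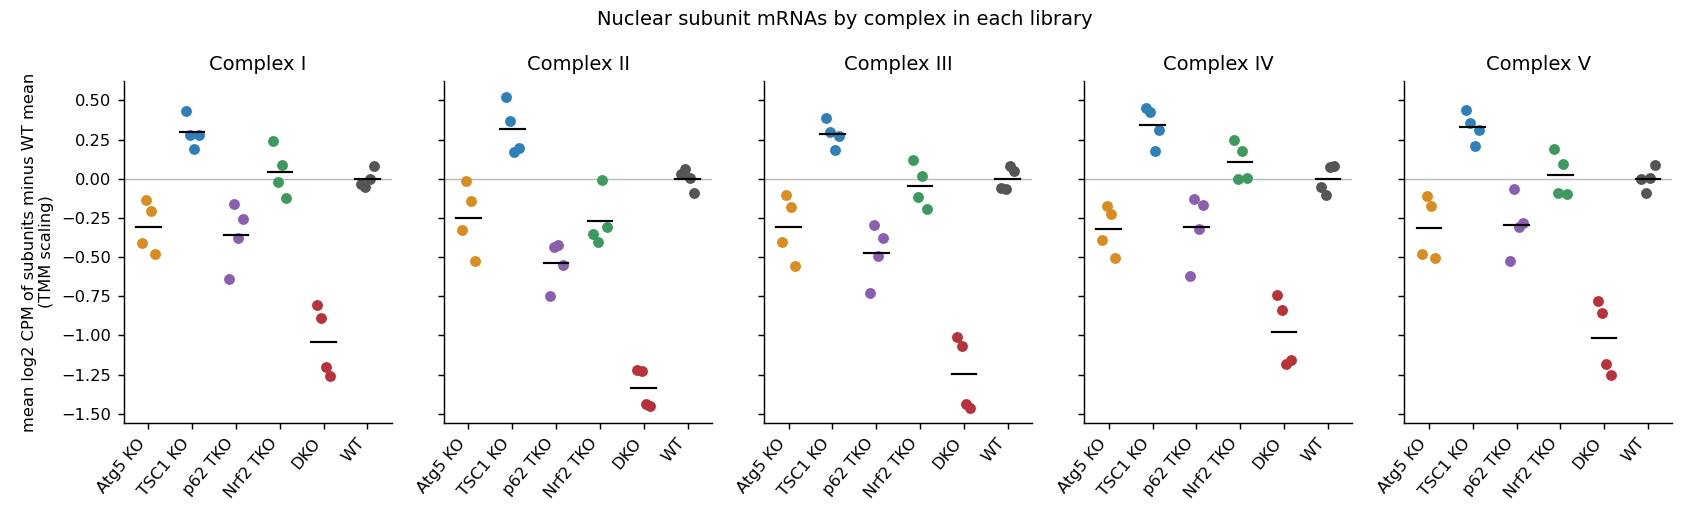
Mean log2 CPM of the subunits of each complex in each library, minus the WT mean (TMM scaling, pseudocount 0.5 CPM; isoforms and members under 1 CPM left out); points are libraries, 4 per genotype, with group means. Over all complexes DKO libraries lie between -1.27 and -0.84 and TSC1 KO libraries between 0.19 and 0.44; with total counts alone the DKO mean was -0.08.

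The complexes did not fall by quite the same amount, and a comparison within each library shows this without any scaling between libraries. For each library the mean log2 level of a complex was set against that of all subunits, with the WT mean at 0. Complex III ran from -0.21 to -0.16 in DKO libraries and from -0.03 to 0.06 in WT libraries. Its values in p62 TKO libraries, -0.13 to -0.10, and in Nrf2 TKO libraries, -0.08 to -0.05, also lay below the WT libraries. Complex IV ran from 0.06 to 0.11 in DKO and from -0.04 to 0.06 in WT libraries, and complex V from 0.03 to 0.06 in DKO and from -0.03 to 0.03 in WT libraries. The complex IV score and the share given below include Cox7a2l, which did not fall in DKO (log2 fold change 0.04). The complex V score includes Atp5s (0.37) and Atp5g2, neither of which was called lower. Scores without these members were not computed, so the complex IV and V differences may rest on them. Complex II averaged -0.27 ± 0.10 in DKO, -0.18 ± 0.11 in p62 TKO, -0.29 ± 0.19 in Nrf2 TKO and 0.00 ± 0.12 in WT livers (SD, n = 4 each). Of all member counts, complex II took 6.75 ± 0.402% in DKO and 8.37 ± 0.692% in WT livers, and complex IV 18.1 ± 0.22% in DKO and 15.3 ± 0.857% in WT livers (SD, n = 4 each). No test was run on these differences, which are small beside the fall that the complexes share.

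**Figure D3:**
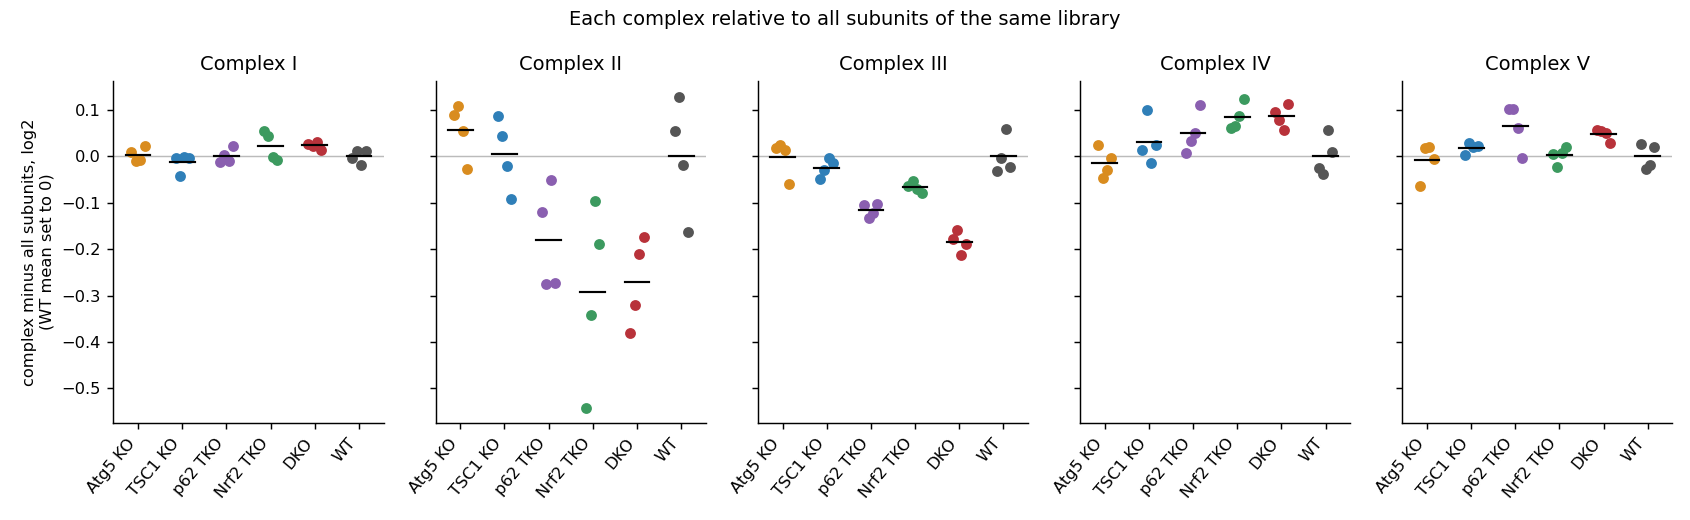
Level of each complex relative to all subunits of the same library (log2, WT mean set to 0); points are libraries, 4 per genotype, with group means. Complex III in DKO libraries lies between -0.21 and -0.16, below the WT libraries, and complex II is spread widely, down to -0.54 in Nrf2 TKO.

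In TSC1 KO livers the members that passed went the other way. Against WT livers 17 of 80 members rose and none fell, when 8.79% of all genes were called higher and 7.6% lower. The members' median was 0.32, against 0.01 over all genes. With total counts 56 members were higher and none lower (median 0.45), when 11.7% of all genes were higher and 3.96% lower. The members' summed level was 17635 to 20953 CPM in TSC1 KO and 15401 to 16044 CPM in WT libraries, with no overlap. The members that rose came from every complex: 4 of complex I, 2 of complex II, 2 of complex III, 5 of complex IV and 4 of complex V. Ndufa5, an accessory subunit of the peripheral arm, had 159, 107, 95.9 and 111 CPM in TSC1 KO, against 63.4, 60.6, 61.1 and 68.9 CPM in WT libraries. Every TSC1 KO library was above every WT library, and the log2 fold change was 0.90 ± 0.18 (SE, edgeR adjusted p = 0.002) and 1.03 with total counts. Atp5e, the epsilon subunit, had 427, 262, 234 and 280 CPM in TSC1 KO, against 179, 178, 200 and 217 CPM in WT libraries, a log2 fold change of 0.64 ± 0.22 (SE, edgeR adjusted p = 0.048) and of 0.76 with total counts. The log2 fold change was 0.08 for Sdha, 0.01 for Atp5b and 0.06 for Ndufs1, none of which passed the test under either scaling. The median annotated exon length was 1237 bases for the 17 that rose and 1801 bases for the other 63, and its part in the result was not tested. The count depends on single libraries: it was 5 without TSC1 KO library 1, 9 without library 2 and 11 without library 4, and 10, 6 and 11 without WT library 1, 2 and 3 in turn. It was 27 with DESeq2 and 36 when only the TSC1 KO and WT libraries were fitted.

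In Atg5 KO livers the fall relative to the typical gene was smaller than in DKO livers. Against WT livers 23 of 80 members fell and none rose, when 11.3% of all genes were called lower and 18.6% higher. The members' median was -0.30 with TMM, and with total counts it turned to 0.07, with none lower and 2 higher, when 2.2% of all genes were lower and 36.1% higher. Relative to the median of all genes it was -0.30 under both scalings, which shift all genes nearly alike by construction. Complex I gave 14 of the 23, complex II none, complex III 1, complex IV 5 and complex V 3. Atp5g1, which encodes the ring subunit of ATP synthase, had 69.8, 117, 78.8 and 67.8 CPM in Atg5 KO, against 151, 114, 106 and 182 CPM in WT libraries, a log2 fold change of -0.73 ± 0.22 (SE, edgeR adjusted p = 0.015). Ndufa1, a small subunit needed for assembly, had 54.4, 65.3, 51.8 and 44.3 CPM in Atg5 KO, against 74.4, 84.1, 94.6 and 86.7 CPM in WT libraries (log2 fold change -0.66). Ndufb9, an accessory subunit of the membrane arm, had 162, 233, 190 and 141 CPM in Atg5 KO, against 262, 261, 300 and 294 CPM in WT libraries (log2 fold change -0.62). Every Atg5 KO library was below every WT library for Ndufa1 and Ndufb9. With total counts the values were -0.38 for Atp5g1, -0.30 for Ndufa1 and -0.27 for Ndufb9, with no call. The mean over all subunits, on the log2 scale against WT, spread from -0.50 to -0.13 in Atg5 KO libraries. Library 2, at -0.13, lay nearest to WT. Its 20 most abundant genes took 22.19% of counts, against 16.89 to 17.23% in the other Atg5 KO libraries. The count was 11 without Atg5 KO library 1 and 9 without library 4, 14, 15 and 9 without WT library 1, 3 and 4 in turn, and 13 with no filter on low counts.

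The fall in DKO livers was deeper than the sum of the single losses. In the interaction, DKO minus Atg5 KO minus TSC1 KO plus WT on the log2 scale, 74 of 80 members were called lower and none higher, when 19.3% of all genes were called lower and 15.5% higher. The members' median was -1.11, against 0.03 over all genes. With total counts 54 were lower and 1 higher (median -0.60), when 10.6% of all genes were lower and 35.5% higher. Ndufa5 gave -1.73 ± 0.26 (SE, edgeR adjusted p = 2e-05) and Sdhb -1.70 ± 0.21 (SE, edgeR adjusted p = 1.4e-06), against -1.23 and -1.19 with total counts. The 6 members not called were Ndufa4l2, Cox4i2, Cox6b2, Cox7a2l, Atp5g2 and Atp5s. Of the 73 members that fell in DKO livers, 23 also fell in Atg5 KO and 16 rose in TSC1 KO livers, in comparisons that share the WT libraries.

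In both triple knockouts subunit mRNAs were higher than in the DKO. In p62 TKO against DKO livers 73 of 80 members rose and 1 fell (median 0.71), when 22.3% of all genes were called higher and 21.5% lower. In Nrf2 TKO against DKO livers 74 rose and 1 fell (median 1.1), when 26.7% of all genes were higher and 29.2% lower. With total counts 30 rose and 2 fell in p62 TKO (median 0.24), when 10.2% of all genes were higher and 47.6% lower. Without the library 4 labelled p62 TKO, 72 rose and none fell with TMM (median 0.70). In Nrf2 TKO with total counts 58 rose and 4 fell (median 0.44), when 11.5% of all genes were higher and 59.8% lower. Both comparisons share the DKO libraries with each other and with DKO against WT. Ndufs1 had 68.7, 76.2, 82.5 and 76.7 CPM in p62 TKO and 87.5, 95.5, 122 and 90.6 CPM in Nrf2 TKO, against 44.8 to 49.1 CPM in DKO libraries. Cox7c, a small membrane subunit of complex IV, had 41.9, 55, 53.9 and 70.4 CPM in p62 TKO and 137, 90.8, 79.4 and 70.1 CPM in Nrf2 TKO, against 32.2, 28.3, 20.6 and 20 CPM in DKO libraries. Both genes were above the DKO range in every library of both triple knockouts. The log2 fold change of Cox7c was 1.13 ± 0.20 (SE, edgeR adjusted p = 0.0001) for p62 TKO and 1.90 ± 0.21 (SE, edgeR adjusted p = 7.5e-08) for Nrf2 TKO against DKO livers, and 0.67 and 1.25 with total counts. The member that fell was Cox4i2 in p62 TKO (-1.57; -2.02 with total counts) and Cox7a2l in Nrf2 TKO livers (-0.69; -1.37 with total counts). The call of Cox4i2 was lost without DKO library 1 or 3, or without p62 TKO library 2, 3 or 4.

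Against WT livers the triple knockouts stood as follows. In p62 TKO 36 members were lower and 3 higher than in WT livers (median -0.31), when 22.9% of all genes were called lower and 28% higher. With total counts that median turned to 0.22, with 16 higher and 1 lower, when 54.1% of all genes were higher and 6.23% lower. Without p62 TKO library 1 the 36 became 21, and without library 4, where Sqstm1 was high, 34 were lower and 3 higher (median -0.35). In Nrf2 TKO 8 were lower and 7 higher (median 0.08), when 17.1% of all genes were lower and 22.4% higher. With total counts 48 were higher and 1 lower (median 0.41), when 38.9% of all genes were higher and 6.33% lower. Relative to the median of all genes the Nrf2 TKO members stood at 0.01 under both scalings, again by construction. Sdha was the lowest member in both comparisons: it had 313, 343, 374 and 291 CPM in p62 TKO and 299, 316, 497 and 421 CPM in Nrf2 TKO, against 548 to 708 CPM in WT libraries. Every library of both triple knockouts was below the WT range. Its log2 fold change was -0.95 ± 0.16 (SE, edgeR adjusted p = 3.4e-05) in p62 TKO and -0.73 ± 0.16 (SE, edgeR adjusted p = 0.00085) in Nrf2 TKO against WT livers, and -0.42 and -0.43 with total counts. The other members lower in Nrf2 TKO were Ndufs1, Ndufv1, Ndufa8, Uqcrc1, Uqcrc2, Atp5a1 and Cox7a2l. The members higher were Cox7a1, Cox6b2, Ndufa5, Cox5b, Ndufb4, Cox6b1 and Cox7b. The median annotated exon length was 1108 bases for the 7 higher and 2884 bases for the 8 lower members, and its part in the result was not tested. The 8 became 3 without the first and 4 without the second Nrf2 TKO library, and 3 and 4 without the first and second WT library. The 7 became 4 without the second WT library, and fitting only the Nrf2 TKO and WT libraries gave 4 higher and 3 lower.

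Apart from Atp5s, the tested members that did not fall in DKO livers were alternative forms or relatives of a subunit. The Cox7a family has a heart and muscle form, Cox7a1, a widely expressed form, Cox7a2, and a relative, Cox7a2l, known as a factor for supercomplexes of complexes III and IV. Subunit c, which forms the ring of the ATP synthase rotor, is made from the genes Atp5g1, Atp5g2 and Atp5g3, whose mature proteins are known to be identical. The promoter windows of these genes are shown because the genes diverge in expression within a family. Each window runs from 250 bases before to 50 bases after the annotated start, 5′ to 3′ on the strand of the gene (RefSeq, GRCm38.p6), and capitals mark the letters of a searched motif. The windows are chr7:30183921-30184220 on the + strand for Cox7a1, chr9:79759804-79760103 on the - strand for Cox7a2, chr17:83514284-83514583 on the - strand for Cox7a2l, chr11:96075582-96075881 on the - strand for Atp5g1, chr15:102670998-102671297 on the - strand for Atp5g2 and chr2:73911277-73911576 on the - strand for Atp5g3.
Cox7a1: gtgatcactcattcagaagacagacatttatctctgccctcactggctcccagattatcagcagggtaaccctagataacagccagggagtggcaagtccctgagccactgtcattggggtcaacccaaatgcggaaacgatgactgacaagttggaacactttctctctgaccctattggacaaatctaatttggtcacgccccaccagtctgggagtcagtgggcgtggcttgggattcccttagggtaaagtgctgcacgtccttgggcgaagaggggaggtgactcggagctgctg
Cox7a2: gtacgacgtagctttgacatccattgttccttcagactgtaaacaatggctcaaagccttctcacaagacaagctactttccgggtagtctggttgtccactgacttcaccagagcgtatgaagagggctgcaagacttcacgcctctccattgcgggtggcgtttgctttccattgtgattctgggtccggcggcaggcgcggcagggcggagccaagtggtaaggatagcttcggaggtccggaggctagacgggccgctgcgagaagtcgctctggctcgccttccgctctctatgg
Cox7a2l: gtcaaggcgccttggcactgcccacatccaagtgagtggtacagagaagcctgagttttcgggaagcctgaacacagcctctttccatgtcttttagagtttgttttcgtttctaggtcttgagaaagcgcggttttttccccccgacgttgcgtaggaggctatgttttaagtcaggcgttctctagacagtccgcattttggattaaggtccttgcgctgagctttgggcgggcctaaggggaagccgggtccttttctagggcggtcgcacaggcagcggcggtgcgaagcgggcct
Atp5g1: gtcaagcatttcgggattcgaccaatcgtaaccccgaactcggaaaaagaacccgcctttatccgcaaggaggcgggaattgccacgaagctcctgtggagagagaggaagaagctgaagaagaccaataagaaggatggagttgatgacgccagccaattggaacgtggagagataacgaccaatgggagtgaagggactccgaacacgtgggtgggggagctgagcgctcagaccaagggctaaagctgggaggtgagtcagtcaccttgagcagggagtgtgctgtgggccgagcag
Atp5g2: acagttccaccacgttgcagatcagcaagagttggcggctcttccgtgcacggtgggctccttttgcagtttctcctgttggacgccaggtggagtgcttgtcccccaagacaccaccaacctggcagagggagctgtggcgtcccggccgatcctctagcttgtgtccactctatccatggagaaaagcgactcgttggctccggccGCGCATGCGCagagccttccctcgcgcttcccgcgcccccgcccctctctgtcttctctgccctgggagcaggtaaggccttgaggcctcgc
Atp5g3: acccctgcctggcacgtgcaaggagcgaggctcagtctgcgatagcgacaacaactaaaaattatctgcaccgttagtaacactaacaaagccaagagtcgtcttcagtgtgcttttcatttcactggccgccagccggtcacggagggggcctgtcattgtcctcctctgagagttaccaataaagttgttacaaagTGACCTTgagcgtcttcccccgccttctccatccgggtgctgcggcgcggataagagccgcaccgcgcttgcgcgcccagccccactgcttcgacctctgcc
In the Atp5g2 window the capitals are overlapping matches on opposite strands to GCATGCGC, letters bound by NRF1. In the Atp5g3 window they are a match to AAGGTCA, letters bound by ESRRA. The other 4 windows hold none of the 5 motifs searched.

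Cox7a2 had 77.9, 67.6, 49.3 and 45.8 CPM in DKO, against 163, 155, 180 and 198 CPM in WT libraries. Cox7a2l had 154, 131, 122 and 122 CPM in DKO, against 125, 117, 132 and 138 CPM in WT libraries. Cox7a2 was lower in every DKO library (log2 fold change -1.53, -0.54 with total counts), whereas Cox7a2l overlapped WT and did not pass (0.04 ± 0.19 (SE, edgeR adjusted p = 0.84)); with total counts Cox7a2l was called higher at 1.04. The log2 ratio of Cox7a2l to Cox7a2 counts, which needs no scaling between libraries, was -0.42 ± 0.16 in p62 TKO, -1.09 ± 0.64 in Nrf2 TKO, 1.16 ± 0.23 in DKO and -0.44 ± 0.06 in WT livers (SD, n = 4 each). It ran from 0.96 to 1.41 in DKO libraries and was negative in every p62 TKO, Nrf2 TKO and WT library. In Atg5 KO libraries it ran from -0.26 to 0.30, above the WT libraries at -0.52 to -0.39, and in TSC1 KO libraries from -1.34 to -0.51. Cox7a2l fell in Nrf2 TKO against DKO livers (-0.69 ± 0.19 (SE, edgeR adjusted p = 0.0034)) and against WT livers (-0.64 ± 0.19 (SE, edgeR adjusted p = 0.0095); -0.33 and no call with total counts). This pair and the Atp5g genes were singled out after their values were seen, and their ratios carry no test.

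Cox7a1 was scarce in WT livers. It had 6.23, 4.36, 4.45 and 3.55 CPM in TSC1 KO, against 1.25, 0.924, 2.12 and 0.365 CPM in WT libraries. The groups did not overlap, and the log2 fold change was 1.97 ± 0.40 (SE, edgeR adjusted p = 0.0017). In DKO libraries it had 1.77, 1.24, 0.417 and 0.953 CPM, within the WT range, and its interaction was -2.43 ± 0.56 (SE, edgeR adjusted p = 0.0015). In p62 TKO libraries it had 2.05, 2.68, 3.24 and 2.65 CPM, with a log2 fold change of 1.28 ± 0.37 (SE, edgeR adjusted p = 0.0079) against DKO (no call with total counts) and of 1.16 ± 0.40 (SE, edgeR adjusted p = 0.018) against WT livers. In Nrf2 TKO libraries it had 5.64, 7.88, 6.01 and 4.15 CPM, with a log2 fold change of 2.44 ± 0.37 (SE, edgeR adjusted p = 8.2e-06) against DKO and of 2.32 ± 0.39 (SE, edgeR adjusted p = 8.8e-05) against WT livers. All Nrf2 TKO libraries lay above the DKO and WT ranges. With total counts the values of Cox7a1 were 2.07 for TSC1 KO, 1.67 for p62 TKO and 2.65 for Nrf2 TKO against WT, 1.80 for Nrf2 TKO against DKO and -1.92 for the interaction, all called. Cox8b, the muscle form of subunit 8, did not pass the filter on low counts and was not tested. It had 18, 3, 18 and 24 counts in TSC1 KO and 2, 7, 1 and 3 counts in Nrf2 TKO, against 1, 0, 0 and 0 counts in WT libraries. The other untested members, Cox6a2, Cox7b2 and Cox8c, had at most 5 counts in any library.

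A pair of low complex IV isoforms rose in DKO livers. Cox4i2, the form of subunit 4 known from lung, had 15, 12, 16 and 13 counts in DKO, against 2, 0, 0 and 1 counts in WT libraries (log2 fold change 3.01 ± 0.79 (SE, edgeR adjusted p = 0.0017)). Cox6b2, the testis form of subunit 6b, had 2.23, 2.36, 2.24 and 1.86 CPM in DKO, against 0.567, 0.347, 0.847 and 0.122 CPM in WT libraries (log2 fold change 2.16 ± 0.54 (SE, edgeR adjusted p = 0.0011)). With total counts the values were 3.95 for Cox4i2 and 3.12 for Cox6b2. Neither overlapped WT, and the size of the Cox4i2 change rests on few counts. In p62 TKO libraries Cox6b2 had 1.84, 2.15, 1.62 and 3.97 CPM and in Nrf2 TKO libraries 1.29, 3.05, 0.581 and 0.676 CPM, with log2 fold changes of 2.30 and 1.56 against WT livers (2.81 and 1.93 with total counts). Nrf2 TKO libraries 3 and 4 lay within the WT range of 0.122 to 0.847 CPM, so that rise rests on libraries 1 and 2. Ndufa4l2 had 1.77, 1.18, 1.62 and 1.35 CPM in DKO, against 2.04, 1.04, 1.38 and 1.34 CPM in WT libraries, and did not pass the test (log2 fold change 0.03; 1.02 and called higher with total counts). Over 23 comparisons of the ratio of an isoform to its widely expressed partner, the exact permutation test over 4 against 4 libraries (two-sided) gave its smallest possible p of 0.0286 for, among others, Cox6b2 to Cox6b1 in DKO against WT and Cox7a1 to Cox7a2 in TSC1 KO against WT. The lowest Benjamini-Hochberg value was 0.073, so none passed the correction. With this smallest p, a corrected value under 0.05 would have needed most of the 23 comparisons to reach it. The failure to pass therefore says little about the ratios. Pairs were tested only where each gene had at least 10 counts summed in each group, which left out Cox4i2 to Cox4i1 in DKO against WT.

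For the ring subunit of ATP synthase, Atp5g1 had 54.1, 47.6, 38.8 and 35.4 CPM in DKO, against 151, 114, 106 and 182 CPM in WT libraries. Atp5g3 had 239, 224, 162 and 141 CPM in DKO, against 447, 442, 499 and 441 CPM in WT libraries. Both fell without overlap, with log2 fold changes of -1.66 ± 0.22 (SE, edgeR adjusted p = 8.4e-07) for Atp5g1 and -1.26 ± 0.17 (SE, edgeR adjusted p = 5.6e-07) for Atp5g3. With total counts they were -0.65, called, and -0.27, not called. Atp5g2 had 101, 91.2, 91.8 and 91.5 CPM in DKO, against 132, 59.4, 126 and 140 CPM in WT libraries. Its libraries overlapped WT and it did not pass (-0.28 ± 0.31 (SE, edgeR adjusted p = 0.43)), but with total counts it was called higher at 0.71. The log2 ratio of Atp5g1 to Atp5g2 counts was -1.11 ± 0.23 in DKO and 0.32 ± 0.50 in WT livers (SD, n = 4 each). Atp5g2 was uneven within groups, at 38.3 to 155 CPM in Atg5 KO libraries. How reads shared with near-identical copies were counted was not examined. In Nrf2 TKO libraries Atp5g1 had 145, 108, 143 and 171 CPM, a log2 fold change of 1.69 ± 0.22 (SE, edgeR adjusted p = 1.4e-06) against DKO livers and of 1.01 with total counts.

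**Figure D4:**
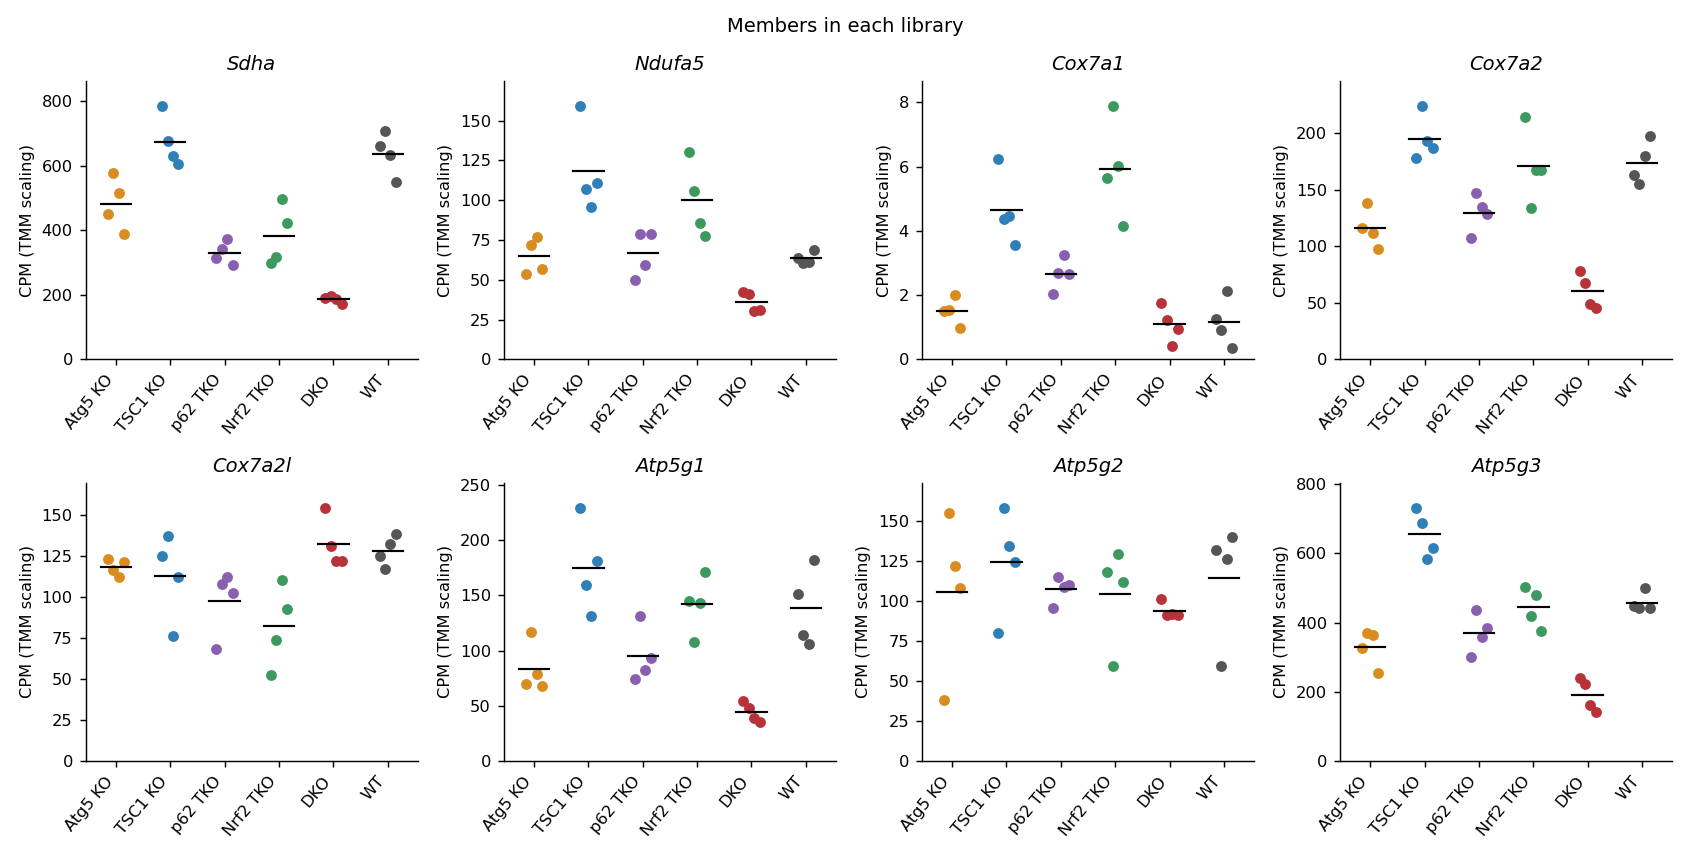
CPM (TMM scaling) of selected members in each library, 4 libraries per genotype, with group means. Cox7a2 and Atp5g1 lie below WT in every DKO library, Cox7a2l and Atp5g2 overlap WT there, and Cox7a1 is high in TSC1 KO and Nrf2 TKO; with total counts alone Cox7a2l and Atp5g2 are called higher in DKO.

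Promoter windows were given for 66 of the 84 members, and 5 motifs were searched on both strands. GCATGCGC, bound by NRF1, a known regulator of OXPHOS genes, was in 10 of the 66 members (15.2%) and in 3.05% of all 27025 genes with a window. AAGATGGC, bound by YY1, was in 9 members (13.6%) and 3.19% of all genes, with 7 in the 32 complex I genes that had a window (21.9%) and 2 in the 13 of complex V (15.4%). AAGGTCA, bound by ESRRA, was in 8 members (12.1%) and 5.38% of all genes. CCGGAAGT, bound by GABPA, was in 5 members (7.58%) and 4.31% of all genes. TGACNNNGC, the core of the antioxidant response element read by Nrf2, was in 9 members (13.6%) and 14% of all genes. No motif of the 5 was found in 31 of the 66 members. Uqcr11, a small complex III subunit, is shown because its window, chr10:80406772-80407071 on the - strand, holds both the GABPA and the NRF1 letters, in this order.
Uqcr11: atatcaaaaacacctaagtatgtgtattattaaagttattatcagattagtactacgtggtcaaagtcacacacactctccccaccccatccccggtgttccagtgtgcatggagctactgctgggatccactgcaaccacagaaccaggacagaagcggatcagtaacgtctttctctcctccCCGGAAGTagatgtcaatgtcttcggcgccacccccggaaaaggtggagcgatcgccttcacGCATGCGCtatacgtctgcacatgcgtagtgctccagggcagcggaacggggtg
Uqcr11 had 93.7, 97.9, 64.1 and 55.8 CPM in DKO, against 159, 148, 188 and 195 CPM in WT libraries (log2 fold change -1.15; -0.16 with total counts). Cox7a2, whose window holds none of the 5 motifs, had a log2 fold change of -1.53 (-0.54 with total counts). Whether members with and without these letters differ in their changes was not tested.

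Other mitochondrial genes also fell in DKO livers, where 32.3% of all genes were called lower and 37.1% higher. Of 46 tested assembly factors of the complexes, 38 fell and 1 rose in DKO against WT livers (median -0.86). Ndufaf1, which helps to build complex I, averaged 11.2 CPM in DKO and 40.2 CPM in WT livers (log2 fold change -1.84 ± 0.13, SE, edgeR adjusted p = 3.9e-11). Tmem70, needed for ATP synthase, averaged 20.3 CPM in DKO and 52 CPM in WT livers (-1.35 ± 0.10, SE, edgeR adjusted p = 4.1e-11). Of 19 genes of the citric acid cycle 18 fell and 1 rose (median -1.30), and of 77 mitochondrial ribosomal proteins 60 fell and 2 rose (median -0.72). Of 16 genes that maintain or transcribe mitochondrial DNA 14 fell (median -0.96), among them Tfam, which packages that DNA (-0.98 ± 0.12, SE, edgeR adjusted p = 1.1e-07). With total counts the medians turned positive for the assembly factors (0.14), the mitochondrial ribosomal proteins (0.27) and the mitochondrial DNA genes (0.04), and stayed negative for the citric acid cycle (-0.31). Changes of single list genes named in this paragraph and the next are with TMM only. Total counts moved the median of all genes in DKO against WT from 0.08 to 1.07. Cytosolic ribosomal proteins had a median of -0.01, with 7 higher and 12 lower of 77, but 0.99 with total counts, with 71 higher and none lower. With total counts 70.4% of all genes were called higher and 11.1% lower. In TSC1 KO against WT livers the median was 0.03 for assembly factors (2 higher, 2 lower), -0.03 for the citric acid cycle (1 higher, 1 lower) and 0.07 for mitochondrial ribosomal proteins (3 higher, 2 lower), beside 0.32 for the OXPHOS subunits. The counts of these other lists are shares below those over all genes in TSC1 KO, 8.79% higher and 7.6% lower. The 13 mitochondrially encoded subunits had a median of -1.66 in DKO against WT livers (-0.65 with total counts), with 7 called lower, in libraries selected for poly(A). Their mean log2 level per library, with the WT mean at 0, was -3.07, -3.19, -0.719 and -0.201 in DKO libraries. It was 1.51, 0.0891, -2.18 and 0.579 in WT libraries, so the groups overlapped and each was widely spread.

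Among 20 tested regulators of these genes, 5 fell and 3 rose in DKO livers (median -0.10 with TMM, turning to 0.89 with total counts, with 16 higher and 3 lower). Both TMM counts are shares below those over all genes, 32.3% lower and 37.1% higher. With total counts 70.4% of all genes were called higher and 11.1% lower, near the shares of the regulators. Ppara, a receptor that drives fatty acid oxidation, averaged 31 CPM in p62 TKO, 30.4 CPM in Nrf2 TKO, 7.61 CPM in DKO and 47.9 CPM in WT livers (DKO over WT -2.65 ± 0.27, SE, edgeR adjusted p = 1.6e-08). Sirt3, a deacetylase of mitochondrial proteins, averaged 18.5 CPM in DKO and 54 CPM in WT livers (-1.54 ± 0.14, SE, edgeR adjusted p = 1.5e-09). Gabpa, a subunit of a transcription factor of OXPHOS genes, averaged 27.8 CPM in DKO and 55 CPM in WT livers (-0.98 ± 0.14, SE, edgeR adjusted p = 9.3e-07). Perm1, a regulator of mitochondrial genes in muscle, averaged 2.25 CPM in DKO and 0.175 CPM in WT livers (3.64 ± 0.47, SE, edgeR adjusted p = 4.4e-07), and Hif1a, the hypoxia-regulated transcription factor, 73.7 CPM in DKO and 46 CPM in WT livers (0.68 ± 0.11, SE, edgeR adjusted p = 7.8e-06). Gabpa overlaps exons of Atp5j on the other strand. In all, 25 of the 80 tested members overlap an exon of a gene on the other strand, among them Ndufs1, Ndufa9, Uqcrc2, Cox4i1, Cox5a and Atp5f1. Without a stated strand setting such reads cannot be told apart. Among the 55 tested members with no such overlap, 49 fell and 3 rose in DKO livers (median -1.06).

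**Figure D5:**
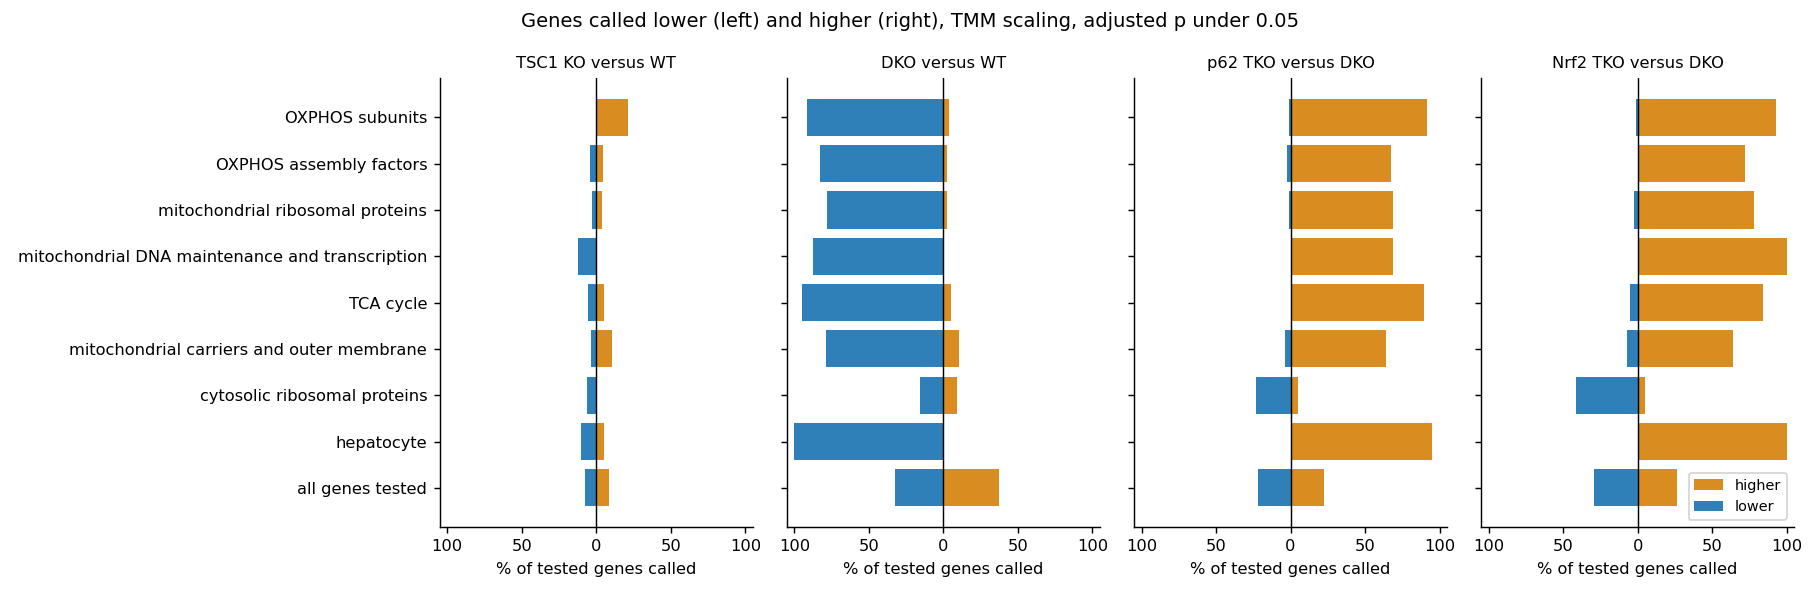
Percentage of the tested genes of each list called lower and higher at an adjusted p under 0.05 with TMM scaling, by comparison. In DKO against WT 73 of 80 OXPHOS subunits are lower and in TSC1 KO against WT 17 of 80 are higher; with total counts 20 of 80 subunits are lower in DKO.

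Markers of liver cell types also differed between the genotypes, and the counts in DKO against WT are to be read beside 37.1% of all genes higher and 32.3% lower. All 20 hepatocyte markers fell in DKO livers (median -2.75 with TMM, -1.76 with total counts). Their summed level was 78465, 157001, 90025 and 74136 CPM in Atg5 KO and 140634 to 155800 CPM in WT libraries. Atg5 KO library 2 was thus above the WT range and the other Atg5 KO libraries below it. The level was 129601 to 145848 CPM in TSC1 KO and 59621 to 85134 CPM in p62 TKO libraries. Nrf2 TKO libraries had 104642 to 145513 CPM and DKO libraries 20016 to 28454 CPM. All 15 cholangiocyte and ductular markers rose in DKO livers (median 5.80). Their summed level was 555 to 1214 CPM in Atg5 KO, 632 to 1027 CPM in TSC1 KO, 2521 to 3772 CPM in p62 TKO, 1706 to 3069 CPM in Nrf2 TKO, 7094 to 10406 CPM in DKO and 144 to 183 CPM in WT libraries. Of 15 stellate and fibroblast markers 11 rose and 2 fell in DKO livers, of 15 macrophage markers 10 rose and 4 fell, of 15 endothelial markers 7 rose and 3 fell, close to those shares, and of 13 tested lymphocyte markers 8 rose and none fell. In TSC1 KO livers 11 of 15 ductular markers rose, 9 of 15 macrophage markers fell, and 1 hepatocyte marker rose and 2 fell. There 8.79% of all genes were called higher and 7.6% lower, and the hepatocyte counts are near those shares. Within a library, the subunit mean minus the hepatocyte marker mean, on the log2 scale with WT at 0, was 1.45 to 2.00 in DKO and -0.12 to 0.16 in WT libraries, so the subunits fell less than the hepatocyte markers. The part of cell composition in the subunit changes was not tested.

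Levels can be compared between members only per length. In WT livers the highest mean levels per kilobase of annotated exon were 387 for Cox4i1, 381 for Cox6a1, 377 for Atp5a1 and 354 CPM per kilobase for Atp5b. Levels of 4.18 for Ndufb2 and 5.98 CPM per kilobase for Atp5l were low for widely expressed subunits, and both genes have long annotated exons and overlap a gene on the other strand. The isoforms Cox7a1 (2.17), Ndufa4l2 (1.32), Cox6b2 (0.425) and Cox4i2 (0.111 CPM per kilobase) were lower still. Annotated exon length joins all transcripts of a gene, so these levels are approximate.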

How the data were processed

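Poly(A)-selected stranded RNA libraries were sequenced with single 75-base reads, per the labels' protocols. Trimmomatic 0.36, HISAT2 2.1.0, HTSeq and the build GRCm38 are named in the submitters' processing notes. The sources used here give no HTSeq version, strand setting or annotation. The deposited table holds raw counts per Ensembl gene, made by the authors and not normalized. Symbols, biotypes, exon lengths and overlaps came from GENCODE M21, which named 32938 of 33019 identifiers.

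Counts were analysed with edgeR 4.0.16 in R 4.3.3: filterByExpr (15851 genes kept), TMM scaling, a robust quasi-likelihood fit with 1 mean per genotype over all 24 libraries, and Benjamini-Hochberg adjustment over all genes, called under 0.05. Library scores used log2(CPM + 0.5), and isoform ratios log2 of counts + 0.5. Alternatives were DESeq2 1.42.0 and its size factors, no filter, total counts alone, only the groups compared, a replicate block, another pseudocount, complexes without isoforms and each library left out.

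The members, gene lists and comparisons were chosen with earlier results of these data known. Values in every library are given for core subunits (1 item is not reported here), for members with the smallest adjusted p or largest change per complex in DKO against WT, for isoforms, and for the 3 largest called changes in each other comparison; list genes were named among the 6 with the smallest adjusted p. Uqcr11, Cox7a2l, Cox8b and the Atp5g genes were added after their values were seen. At 10494080 to 13057467 counts per library, members under about 1 CPM rest on few counts.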

Additional observations from a re-analysis of the deposited data

Results flagged for a closer look

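In every genotype the 80 tested members, the 5 complex scores and the members' share of counts were examined for a library far from the other 3 of its group, by the gap to the nearest library over the range of the group and Dixon's 95% critical value. It marked 14 of 516 groups, when chance marks about 1 in 20. In TSC1 KO library 1 the marked values were all high: 385 CPM for Atp5h, 183 CPM for Ndufa2, 160 CPM for Ndufb5, 176 CPM for Ndufs6 and 276 CPM for Uqcrb. In WT library 4 they were 295 CPM for Atp5j2, 196 CPM for Ndufa10 and 71.7 CPM for Ndufa11, all high, and 67.5 CPM for Ndufb8, which was low. The others were Ndufb9 in Nrf2 TKO library 1 (280 CPM, high), Atp5g2 in DKO library 1 (101 CPM, high), Ndufv2 in DKO library 3 (81.6 CPM, low), Atp5g2 in WT library 2 (59.4 CPM, low) and Atp5g3 in WT library 3 (499 CPM, high). The effect of Atg5 loss differed with Tsc1 loss for 74 of 80 members, all lower in the interaction term by edgeR's quasi-likelihood test, and for 54 lower and 1 higher with total counts alone.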

How the results depend on the processing

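The scaling moved the results most. With total counts alone the median member turned to 0.07 for Atg5 KO (2 higher, 0 lower) and 0.22 for p62 TKO (16 higher, 1 lower), and was 0.45 for TSC1 KO (56 higher), -0.08 for DKO (11 higher, 20 lower) and 0.41 for Nrf2 TKO (48 higher, 1 lower), each against WT. It was -0.60 for the interaction (1 higher), 0.24 for p62 TKO (30 higher, 2 lower) and 0.44 for Nrf2 TKO (4 lower) against DKO, and Cox4i1 in DKO against WT turned to 0.26. These shifts follow the construction of the scaling, which moved the median of all genes alike. Without the filter 13 members were lower in Atg5 KO; DESeq2 called 27 higher in TSC1 KO. Fitting only the groups compared gave 36 higher in TSC1 KO, and 4 higher and 3 lower in Nrf2 TKO against WT; the cause was not tested. Leaving out each library gave 9 to 34 lower in Atg5 KO, 5 to 21 higher in TSC1 KO, 0 to 1 lower in p62 TKO and 1 to 2 lower in Nrf2 TKO against DKO, 1 to 3 higher and 21 to 48 lower in p62 TKO against WT, and 4 to 9 higher, 3 to 10 lower and a median of 0.02 to 0.19 in Nrf2 TKO against WT. The 73 lower in DKO stayed at 73, and the 74 of the interaction at 73 to 75. DESeq2's size factors left all 24 summary results on their side. The deviations of same-numbered libraries from their group means had correlations of -0.116 to 0.244. Differently numbered libraries were not compared in this way, so whether the numbers pair the libraries was not tested. A replicate block gave 4 higher in Nrf2 TKO against WT and left the other 23 summary results within 1.5 times.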
